A study of Homo sapiens with 12 samples.

Results

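Hypoxia-inducible factor (HIF) targets and glycolytic genes were followed in HepG2 cells, a human line derived from a liver cancer, in 4 culture media. The genes were chosen by name, 36 in all, as 15 glycolytic enzymes and 21 other genes known as HIF targets. Of these, 34 were among the 10940 genes of the count table, 13 glycolytic enzymes and all 21 other targets, while HK1 and PFKP were not analysed here. No measured value was used to choose them in the rule, although the list was drawn up with earlier results of these data known.

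All cells were wild type and were seeded in EMEM (Eagle's minimum essential medium), their maintenance medium. After 24 h they were moved to fresh EMEM, to Plasmax (a medium with nutrients set after human plasma), to Plasmax lacking trace elements (Plasmax-TE) or to the latter supplemented with iron (Plasmax-TE+Fe), always with 10% heat-inactivated fetal bovine serum. Media were renewed at 48 h, cells were collected 96 h after the switch, and 3 libraries of messenger RNA 3′ ends were made per medium, 12 in all. Iron compound and dose are not given in the labels, nor are an oxygen level or the glucose content of the media. Whether the 3 libraries of each medium are separate cultures is not stated in the labels. The p-values therefore reflect how far libraries spread, and that spread may be technical.

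HIF is a transcription factor made of an oxygen-regulated alpha subunit, such as HIF1A or EPAS1, and the stable subunit ARNT. Prolyl hydroxylases of the EGLN family, which need oxygen, iron and oxoglutarate, mark the alpha subunit for degradation through VHL. When they slow down, the alpha subunit accumulates and raises glucose transporters, glycolytic enzymes, mitophagy receptors, matrix-modifying enzymes and its own hydroxylases. Glycolysis converts glucose to pyruvate, and LDHA reduces pyruvate to lactate, which SLC16A3 exports. Messenger RNA does not show the amount or hydroxylation of HIF protein, which was not measured here.

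Library totals were 1562125 to 2384090 counts, so 1 count was worth 0.419 to 0.640 CPM (a gene's share of its library's counts, scaled to the same total in each). Levels are given in CPM in the order of the replicate numbers, or as mean ± SD (n = 3 libraries), and differences as log2 fold changes ± SE. A gene was called when its Benjamini-Hochberg adjusted p over the 10459 genes tested was under 0.05 in edgeR's quasi-likelihood test. Replicate 1 of Plasmax-TE and replicate 2 of Plasmax-TE+Fe, which carry the neighbouring library numbers 87 and 88, stood apart on the second principal component, at 35.3 and 32.3 against -18.7 to 6.9 in the other 10 libraries. Each count of called members below is therefore also given without them where it moved. All 10 hepatocyte markers were measured, with a summed level of 33576 to 36871 CPM in EMEM, 10723 to 12057 in Plasmax, 20323 to 24317 in Plasmax-TE and 15641 to 17974 in Plasmax-TE+Fe. The biliary markers KRT19 and SOX9 together had 346 to 417 CPM in EMEM, 865 to 1104 in Plasmax, 329 to 356 in Plasmax-TE and 341 to 584 in Plasmax-TE+Fe. Of the leukocyte markers CD68 and LYZ were measured, with 2110.2 to 2502 CPM together in EMEM, 1229 to 1684 in Plasmax, 784 to 1667 in Plasmax-TE and 1005 to 1722 in Plasmax-TE+Fe. CD68 was at most 6.49 CPM, so LYZ made up almost all of the sum, and LYZ was called lower than in EMEM in Plasmax (log2 -0.70 ± 0.24, adjusted p = 0.043) and in Plasmax-TE (-0.84 ± 0.24, adjusted p = 0.0464). Of 3 fibroblast and stellate markers only COL1A1 was in the table (at most 8.36 CPM), and 0 of 3 endothelial markers were. All libraries were of the HepG2 line, so the names of these marker lists do not show that other cell types were present. The part of these shifts in the results below was not tested. In bulk RNA fewer cells that express a gene and less of its RNA per cell cannot be told apart.

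The core sequence that HIF binds is ACGTG or GCGTG. Both were searched on both strands in the 250 bases before the annotated starts of the members (RefSeq, GRCh38.p14), in which 30 of the 34 measured members had 47 windows. VEGFA, NDRG1, SLC2A3 and BNIP3L had none in the table. A match to ACGTG or GCGTG lay in 37 of 47 windows (78.7%), against 43.2% of the 35114 windows of all genes. ACGTG alone was in 55.3% against 18.5%, and GCGTG alone in 46.8% against 32.2%. The palindrome CACGTG, which contains ACGTG on both strands and is counted as 2 matches, was in 17.0% against 6.35%. Glycolytic enzymes had a match to either core in 15 of 18 windows and the other targets in 22 of 29. Windows of 1 gene overlap in part and base composition was not matched. A match is a description of the letters, not a measured binding site.

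6 windows are shown because their genes carry the contrasts described below, chosen after their values were seen. BNIP3, LOX and ANKRD37 were below EMEM in each other medium, while SLC2A1, ENO1 and PKM stayed near their EMEM level in Plasmax and were lowest in Plasmax-TE. ANKRD37 is among the members, named below, that passed the low-count filter through EMEM, the medium in which they were high. All are 250 bases before the start, read 5′ to 3′ on the gene's strand, with matches to ACGTG or GCGTG on either strand in capitals (on the opposite strand these read CACGT and CACGC).
BNIP3 (GRCh38.p14, chr10:131981924-131982173, minus strand, 6 matches): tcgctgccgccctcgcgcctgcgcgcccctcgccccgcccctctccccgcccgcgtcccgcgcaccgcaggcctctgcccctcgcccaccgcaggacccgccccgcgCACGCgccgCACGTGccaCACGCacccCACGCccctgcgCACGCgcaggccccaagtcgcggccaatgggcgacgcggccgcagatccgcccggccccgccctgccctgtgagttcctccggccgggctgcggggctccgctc
LOX (chr5:122078260-122078509, minus strand, 4 matches): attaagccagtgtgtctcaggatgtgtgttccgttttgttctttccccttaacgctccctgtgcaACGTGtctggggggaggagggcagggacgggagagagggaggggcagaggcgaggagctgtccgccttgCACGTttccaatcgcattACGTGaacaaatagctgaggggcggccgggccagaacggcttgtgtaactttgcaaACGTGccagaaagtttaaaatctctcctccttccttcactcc
ANKRD37 (chr4:185396591-185396840, plus strand, 3 matches): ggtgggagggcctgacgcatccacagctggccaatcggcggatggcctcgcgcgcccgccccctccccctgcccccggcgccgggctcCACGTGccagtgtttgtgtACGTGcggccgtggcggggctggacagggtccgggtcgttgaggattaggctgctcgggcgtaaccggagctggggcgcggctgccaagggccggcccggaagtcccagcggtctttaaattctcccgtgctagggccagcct
ENO1 (chr1:8878687-8878936, minus strand, 2 matches): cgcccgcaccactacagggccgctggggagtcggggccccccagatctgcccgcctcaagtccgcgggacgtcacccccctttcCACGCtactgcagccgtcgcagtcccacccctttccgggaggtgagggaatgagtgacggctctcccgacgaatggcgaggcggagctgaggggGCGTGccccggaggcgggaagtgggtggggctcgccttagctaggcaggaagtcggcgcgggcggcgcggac
SLC2A1 (chr1:42958869-42959118, minus strand, 0 matches): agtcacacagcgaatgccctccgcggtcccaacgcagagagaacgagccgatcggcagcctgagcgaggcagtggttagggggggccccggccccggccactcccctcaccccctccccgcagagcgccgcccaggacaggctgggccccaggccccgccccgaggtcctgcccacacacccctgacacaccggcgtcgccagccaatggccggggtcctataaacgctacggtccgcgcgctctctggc
PKM (chr15:72231191-72231440, minus strand, 0 matches): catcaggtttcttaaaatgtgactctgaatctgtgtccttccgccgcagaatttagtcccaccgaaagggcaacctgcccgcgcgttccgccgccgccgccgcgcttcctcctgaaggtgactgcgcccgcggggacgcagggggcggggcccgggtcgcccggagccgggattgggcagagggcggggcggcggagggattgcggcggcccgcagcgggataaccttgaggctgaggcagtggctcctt
The matches of BNIP3 lie within 104 to 143 bases of the start, those of LOX within 42 to 185 and those of ANKRD37 within 143 to 162. In this LOX window all 4 matches are ACGTG, and in BNIP3 2 are ACGTG and 4 GCGTG. ENO1 has 2 GCGTG matches, at 72 and 166 bases. No match in the SLC2A1 and PKM windows says only that these letters are not in these 250 bases. The 6 windows do not stand for the members. EGLN3 and RORA had 0 matches and fell from EMEM to Plasmax, while GAPDH had 2 and was called in no pairwise comparison. Whether matches go with the response to a medium was not tested.

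With the 4 media tested together, 17 of the 21 other HIF targets and 4 of the 13 glycolytic enzymes differed, against 18.0% of all genes tested. Among the 16 other targets that did not owe their place in the test to EMEM libraries, as described below, 12 differed. Without the 2 libraries that stood apart, 8 of the 13 enzymes did. The share of all genes in that fit is not given here, and the 18.0% belongs to the fit with all libraries. In a heat map of the 34 members most other targets had their highest level in the EMEM libraries, while several enzymes and SLC2A1 had their lowest in Plasmax-TE. Summed over the list, the other targets had 2139 to 3041 CPM in EMEM, 1589.9 to 1905 in Plasmax, 923 to 1107 in Plasmax-TE and 1191 to 1879 in Plasmax-TE+Fe. The enzymes, with GAPDH the most abundant, had 7297 to 8809, 6699 to 8157, 4404 to 6304 and 5591 to 7351 CPM in the same order. Among the other targets SLC2A1 had 747 ± 114 CPM in Plasmax and 202 ± 120.3 in Plasmax-TE. The lower sum of the other targets in Plasmax-TE than in Plasmax thus rests largely on this gene. The pairwise comparisons below share libraries with each other and are not independent.

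**Figure D1:**
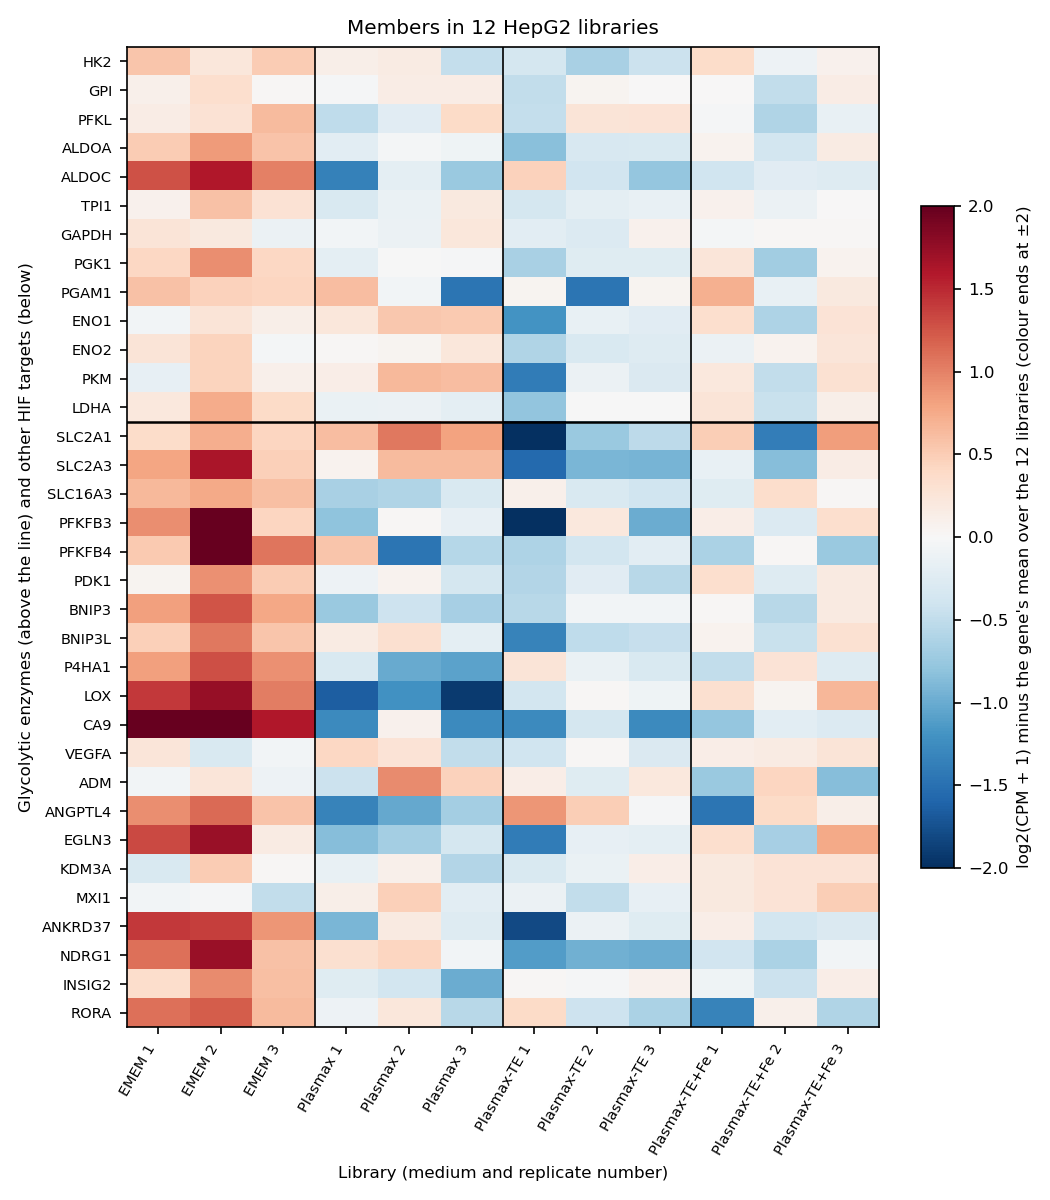
Heat map of the 34 measured members (rows) in 12 libraries (columns), coloured by log2(CPM + 1) minus the gene's mean over the 12 libraries, with glycolytic enzymes above the horizontal line. EMEM libraries are red for most other HIF targets such as BNIP3, LOX and NDRG1, and SLC2A1 is darkest blue in the 2 libraries that stood apart.

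Plasmax against EMEM shows what changed with the plasma-like medium. Of the other HIF targets 15 of 21 fell and 0 rose, with a median log2 fold change of -1.24, and 5 of 13 glycolytic enzymes fell and 0 rose, with a median of -0.47. Over all genes the median was -0.01, with 11.5% called lower and 9.9% called higher. At an unadjusted p under 0.05, 0 members of either list were higher, and DESeq2 and limma-voom also called 0 higher. DESeq2 called 15 other targets and 5 enzymes lower, limma-voom 13 and 5. The fit that omits the 2 libraries that stood apart called 16 other targets and 6 enzymes lower, with SLC2A3 (adjusted p = 0.029) and TPI1 (adjusted p = 0.026) added. It called 1552 of 10643 genes lower. The 15 include CA9, PFKFB3, PFKFB4, EGLN3 and ANKRD37, which reached the level of the low-count filter in fewer than 3 libraries outside EMEM and so passed it through the medium in which they were high. Among the other 16 targets 10 fell and 0 rose, with a median of -0.89.

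The mitophagy receptor BNIP3 had 176, 238 and 169.7 CPM in EMEM and 58.9, 74.2 and 61.9 in Plasmax. The lowest EMEM library was above the highest Plasmax library, and BNIP3 fell by 1.63 ± 0.21 on the log2 scale (adjusted p = 1.5e-05). Its relative BNIP3L had 92.2, 138 and 97.4 CPM in EMEM and 74.3, 82.5 and 57.9 in Plasmax. These groups were close, and BNIP3L fell by 0.67 ± 0.23 (adjusted p = 0.044), a call that was lost in 7 of 12 fits with 1 library left out.

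P4HA1, a subunit of the collagen prolyl hydroxylase, had 191, 263 and 202 CPM in EMEM and 87.1, 52.8 and 50.7 in Plasmax. No Plasmax library reached the EMEM range, and P4HA1 fell by 1.85 ± 0.21 (adjusted p = 4.2e-06). LOX, the lysyl oxidase that cross-links collagen and elastin, had 18.1, 23.1 and 13.6 CPM in EMEM and 1.28, 2.09 and 0.898 in Plasmax. LOX was near the floor of detection in Plasmax and fell by 3.69 ± 0.41 (adjusted p = 2.8e-06).

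CA9, a carbonic anhydrase of the plasma membrane and a standard hypoxia marker, had 17.4, 9.23 and 6.37 CPM in EMEM. In Plasmax it had 0, 1.57 and 0 CPM, which is 3 counts over the 3 libraries against 64 in EMEM. The ratio of summed levels, EMEM over Plasmax, was 19.7 (exact 95% interval 6.43 to 97.9, counting error only). CA9 reached the low-count filter through the EMEM libraries alone, so its call had to show a difference.

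Among genes of glucose handling, the lactate exporter SLC16A3 had 409, 443 and 395 CPM in EMEM and 166, 172 and 212 in Plasmax. The 2 media were well separated, and SLC16A3 fell by 1.23 ± 0.16 (adjusted p = 2.4e-05). PFKFB3 and PFKFB4, enzymes that set the level of a phosphofructokinase activator, had log2 fold changes of -2.20 ± 0.61 (adjusted p = 0.014) and -2.38 ± 0.59 (adjusted p = 0.0064). Both rest on few counts, and EMEM replicate 2 was the highest library of each, with 28.9 and 21.8 CPM against 5.91 to 8.72 and 4.98 to 7.73 in the other EMEM libraries. PDK1, which restrains pyruvate entry into the mitochondrion, fell by 0.75 ± 0.24 (adjusted p = 0.033), with overlapping libraries. The glucose transporters were not called. SLC2A1 had 541, 698 and 566 CPM in EMEM and 641, 868 and 732 in Plasmax (log2 0.26 ± 0.42, adjusted p = 0.70), and SLC2A3 had a log2 fold change of -0.64 ± 0.27 (adjusted p = 0.10).

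The secreted and regulatory targets divided into those that fell and those that were not called. NDRG1, a stress-response gene used as a hypoxia marker, had 343, 526 and 239 CPM in EMEM and 198, 215 and 152 in Plasmax. Its libraries did not overlap, and NDRG1 fell by 1.03 ± 0.22 (adjusted p = 0.0021). ANGPTL4, a secreted inhibitor of lipoprotein lipase, fell by 2.21 ± 0.46 (adjusted p = 0.0018), from 13.1, 15.1 and 10.0 CPM to 1.92, 2.61 and 3.59. EGLN3, a HIF prolyl hydroxylase that is itself a HIF target, fell by 2.29 ± 0.59 (adjusted p = 0.0083), and ANKRD37, an ankyrin-repeat protein, by 1.75 ± 0.44 (adjusted p = 0.0069). INSIG2, which holds back the processing of SREBP, fell by 1.24 ± 0.20 (adjusted p = 1.9e-04), and the nuclear receptor RORA by 1.25 ± 0.33 (adjusted p = 0.0095).

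VEGFA, the main angiogenic growth factor, had 89.1, 60.8 and 72.3 CPM in EMEM and 101, 91.4 and 53.0 in Plasmax. These ranges overlapped (log2 0.08 ± 0.20, adjusted p = 0.82). The vasodilator peptide gene ADM (log2 0.40 ± 0.36), the histone demethylase KDM3A (-0.39 ± 0.22) and the MYC antagonist MXI1 (0.28 ± 0.19) were not called either, with adjusted p-values of 0.47, 0.23 and 0.33.

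Among the enzymes of glycolysis, ALDOA, which splits fructose bisphosphate, had 960.1, 1219.8 and 1000.0 CPM in EMEM and 581, 657 and 637 in Plasmax. The groups were separate, and ALDOA fell by 0.81 ± 0.18 (adjusted p = 0.0027). Its less abundant isoenzyme ALDOC fell by 2.20 ± 0.33 (adjusted p = 7.7e-05), from 24.9, 31.5 and 20.5 CPM to 3.20, 8.36 and 5.39. PGK1, which forms ATP in the payoff phase, fell by 0.73 ± 0.22 (adjusted p = 0.020), LDHA by 0.67 ± 0.22 (adjusted p = 0.034) and HK2, the inducible hexokinase, by 0.55 ± 0.19 (adjusted p = 0.041). GAPDH, often used as a reference gene, had 3109, 2963 and 2379 CPM in EMEM and 2489, 2381 and 3042 in Plasmax. GAPDH was within its own spread (log2 -0.14 ± 0.15, adjusted p = 0.55). ENO1 and PKM were the 2 enzymes above 0, at 0.28 ± 0.25 and 0.29 ± 0.27 (adjusted p = 0.46 and 0.49). The remaining 5, TPI1, PGAM1, PFKL, ENO2 and GPI, were below 0, between -0.79 and -0.11, and were not called.

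With each of the 12 libraries left out in turn, 10 of the 15 other targets and 2 of the 5 enzymes, ALDOA and ALDOC, were tested and called in every fit. PFKFB4 was called in the 10 fits that tested it and missed the filter without EMEM replicate 2 or 3. The calls lost in at least 1 fit were those of HK2, PGK1, LDHA, PFKFB3, PDK1, BNIP3L and EGLN3, with adjusted p up to 0.17, 0.12, 0.15, 0.22, 0.19, 0.21 and 0.069. All but that of HK2 were highest without EMEM replicate 2, which left 3 enzymes and 10 other targets called. Leaving out EMEM replicate 3, Plasmax replicate 1 or Plasmax-TE+Fe replicate 3 also left 3 enzymes, and leaving out Plasmax replicate 2 left 2. Over these 12 fits 1489 to 2642 of all genes were called, fewest without Plasmax replicate 2.

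**Figure D2:**
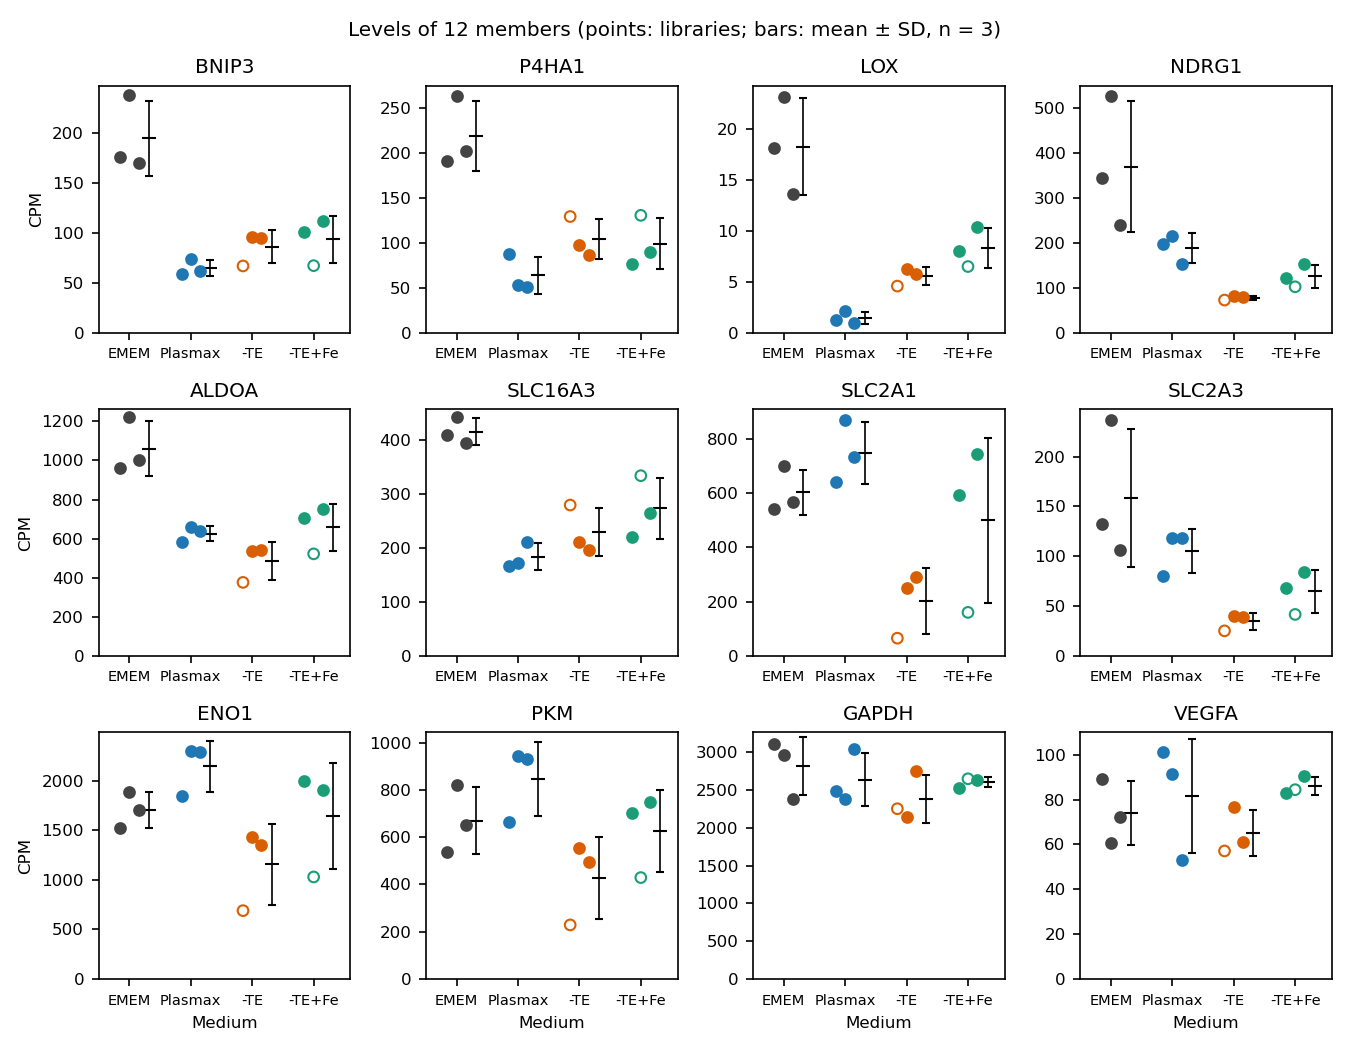
Levels of 12 members in CPM (vertical axis from 0) in the 4 media, with 1 point per library, open points for the 2 libraries that stood apart, and bars for mean ± SD (n = 3). BNIP3, P4HA1, LOX, ALDOA and SLC16A3 are highest in EMEM, SLC2A1, SLC2A3, ENO1 and PKM are lowest in Plasmax-TE, and GAPDH and VEGFA overlap between media.

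Plasmax-TE against Plasmax shows what changed when the trace elements were left out. The glucose transporters SLC2A1 and SLC2A3, the enzymes ENO1 and PKM, NDRG1 and BNIP3L fell, while P4HA1, LOX and ANGPTL4 rose. In counts, 2 of 13 enzymes fell and 0 rose (median log2 -0.22), and 4 of 21 other targets fell and 3 rose (median -0.30). Over all genes 5.63% were called lower and 5.61% higher, with a median of 0.02. At an unadjusted p under 0.05, 0 enzymes were higher, and DESeq2 and limma-voom called 0 higher as well. DESeq2 called 1 enzyme lower, and limma-voom 2 other targets higher. The low-count members set aside above were not called here.

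SLC2A1, the glucose transporter of most dividing cells, had 65.1, 249.9 and 291 CPM in Plasmax-TE against 641, 868 and 732 in Plasmax. The highest Plasmax-TE library was under every Plasmax library, and SLC2A1 fell by 1.85 ± 0.44 (adjusted p = 0.010). SLC2A3, a high-affinity glucose transporter, had 25.1, 39.9 and 39.2 CPM against 80.0, 118 and 118. It fell by 1.58 ± 0.30 (adjusted p = 0.0021), again without overlap. Plasmax-TE replicate 1 was the lowest of the 12 libraries for both transporters.

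ENO1, the enolase of the payoff phase, had 689.9, 1428 and 1349 CPM in Plasmax-TE and 1849, 2298 and 2287 in Plasmax. ENO1 fell by 0.87 ± 0.25 (adjusted p = 0.030). PKM, the pyruvate kinase, had 229, 556 and 493 CPM in Plasmax-TE and 664, 945 and 929 in Plasmax. PKM fell by 0.97 ± 0.27 (adjusted p = 0.027), and neither enzyme's libraries overlapped. Both calls were lost without Plasmax replicate 2, Plasmax replicate 3 or Plasmax-TE replicate 1, with adjusted p of 0.081 to 0.10, which left 0 enzymes called, and in DESeq2 that of PKM was lost (adjusted p = 0.080). Over the 12 fits with 1 library left out, 477 to 1577 of all genes were called in this comparison, fewest without Plasmax replicate 2. The other 11 enzymes had log2 fold changes from -0.49 to 0.57 and were not called.

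NDRG1 had 72.5, 81.2 and 79.5 CPM in Plasmax-TE, below the 152 to 215 of Plasmax. It fell by 1.26 ± 0.23 (adjusted p = 0.0016), the lowest adjusted p of the members in this comparison. BNIP3L had 25.7, 46.2 and 47.6 CPM and fell by 0.81 ± 0.25 (adjusted p = 0.039), while BNIP3, with 66.8, 95.6 and 95.2 CPM, had a log2 fold change of 0.42 ± 0.21 (adjusted p = 0.22). The 2 mitophagy receptors had differences of opposite sign. With all libraries BNIP3L passed the test and BNIP3 did not, while without the 2 libraries that stood apart BNIP3 was called higher (log2 0.59, adjusted p = 0.024) and BNIP3L was not called (-0.56, adjusted p = 0.068).

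LOX had 4.57, 6.28 and 5.76 CPM in Plasmax-TE, all above its 3 Plasmax libraries. It rose by 1.95 ± 0.49 (adjusted p = 0.015). ANGPTL4 had 12.6, 9.42 and 6.28 CPM against 1.92 to 3.59 and rose by 1.72 ± 0.48 (adjusted p = 0.026). P4HA1 had 129, 97.4 and 86.3 CPM against 87.1, 52.8 and 50.7, with 1 pair of libraries crossing, and rose by 0.73 ± 0.22 (adjusted p = 0.035). LOX is a copper enzyme and P4HA1 an iron enzyme, as background.

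Without the 2 libraries that stood apart the counts were 2 enzymes lower, 3 other targets lower and 2 higher, as BNIP3 gained a call and those of BNIP3L, P4HA1 and ANGPTL4 were lost (adjusted p = 0.068, 0.057 and 0.056). Of all genes in that fit, 582 of 10643 were lower and 586 higher. In all 12 fits with 1 library left out SLC2A1, SLC2A3 and NDRG1 were called lower, while BNIP3L, P4HA1, LOX and ANGPTL4 each lost their call in 2 to 5 of them (adjusted p up to 0.16, 0.18, 0.058 and 0.10), so that 4 other targets were called without Plasmax replicate 2 or Plasmax-TE replicate 1 and 3 without Plasmax-TE replicate 2.

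**Figure D3:**
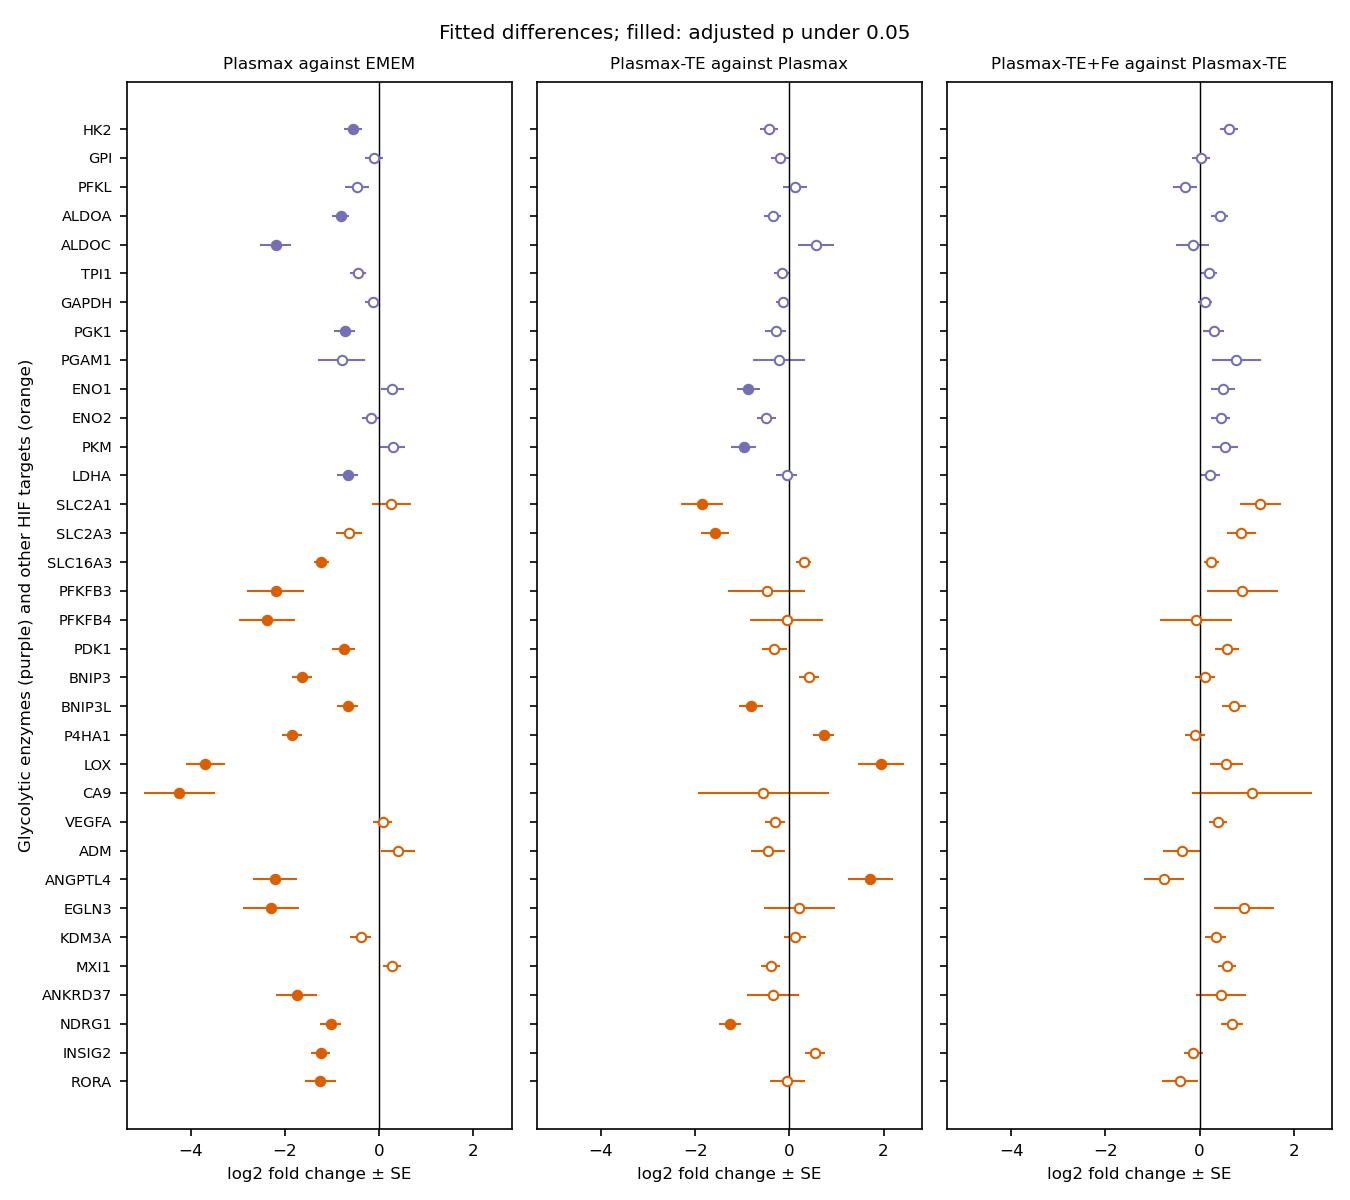
Fitted log2 fold changes ± SE of the 34 members in 3 comparisons, with enzymes in purple, other HIF targets in orange and filled points for adjusted p under 0.05. Most filled points lie left of 0 for Plasmax against EMEM, points lie on both sides for Plasmax-TE against Plasmax, and no point is filled for Plasmax-TE+Fe against Plasmax-TE.

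Adding iron to Plasmax-TE gave members higher values on balance, but none passed the test. In edgeR 0 of 13 enzymes and 0 of 21 other targets were called, and DESeq2 and limma-voom called 0 as well. Of all genes 0.0861% were called higher and 0.172% lower. At an unadjusted p under 0.05, 3 enzymes and 6 other targets were higher and 0 were lower. The share of all genes at this unadjusted threshold is not given here, so these counts have no background beside them. Log2 fold changes were above 0 in 11 of 13 enzymes (median 0.30) and in 15 of 21 other targets (median 0.46), against a median of 0.00 over all genes. Without the 2 libraries that stood apart, 12 and 15 were above 0.

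SLC2A1 had 591, 160.1 and 745 CPM with iron, against 65.1, 249.9 and 291 without. Plasmax-TE+Fe replicate 2 lay within the Plasmax-TE range and the others above it (log2 1.29 ± 0.43, adjusted p = 0.29). SLC2A3 had 68.5, 41.6 and 83.9 CPM with iron, all above the 25.1 to 39.9 without (log2 0.89 ± 0.30, adjusted p = 0.30). NDRG1 had 122, 102 and 153 CPM, also without overlap (0.69 ± 0.23, adjusted p = 0.29). BNIP3L (0.73 ± 0.25, adjusted p = 0.30) and HK2 (0.62 ± 0.19, adjusted p = 0.22) likewise had all iron libraries above those without iron. ENO1 had 1996, 1029.6 and 1906 CPM and PKM 702, 429 and 749, and for both replicate 2 fell among the Plasmax-TE libraries.

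Libraries were numbered 85 to 96 in 3 runs of 4, each with 1 library of every medium, and the libraries that stood apart belong to the same run, 85 to 88. What a run shares is not given in the labels. Within runs the iron library had 2.46, 2.98 and 2.03 times the SLC2A1 level of its Plasmax-TE partner. For SLC2A3 the ratios were 1.66, 2.10 and 1.75, and for BNIP3L 1.87, 1.77 and 1.47. The pairs of the first run started lower and moved in the same direction.

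PKM had within-run ratios of 1.87, 1.35 and 1.42, ENO1 of 1.49, 1.34 and 1.48 and ALDOA of 1.39, 1.39 and 1.30. In all 3 runs iron libraries were higher for 7 of 13 enzymes and 11 of 21 other targets, and lower for 1 enzyme (PFKL) and 2 other targets (ANGPTL4 and RORA). Of all genes tested, 20.7% were higher and 19.2% lower in all 3 runs. With the run as a block in edgeR's fit, SLC2A1 (1.27 ± 0.30, adjusted p = 0.035), SLC2A3 (0.88 ± 0.22, adjusted p = 0.046) and PKM (0.58 ± 0.15, adjusted p = 0.0496) were called higher, while 0.488% of all genes were called higher and 0.966% lower. Without Plasmax-TE+Fe replicate 2 HK2, SLC2A1, SLC2A3 and BNIP3L were called higher (adjusted p = 0.042, 0.0092, 0.038 and 0.039). This was the fit with the most members called. Over the fits with 1 library left out, 0 to 1 enzymes and 0 to 3 other targets were called. Of all genes 0 to 229 were called over these fits. The number without Plasmax-TE+Fe replicate 2 is not given here, so its member calls have no background beside them. Without the 2 libraries that stood apart SLC2A1 was called higher (log2 1.29, adjusted p = 5.0e-04), against 42 of 10643 genes.

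**Figure D4:**
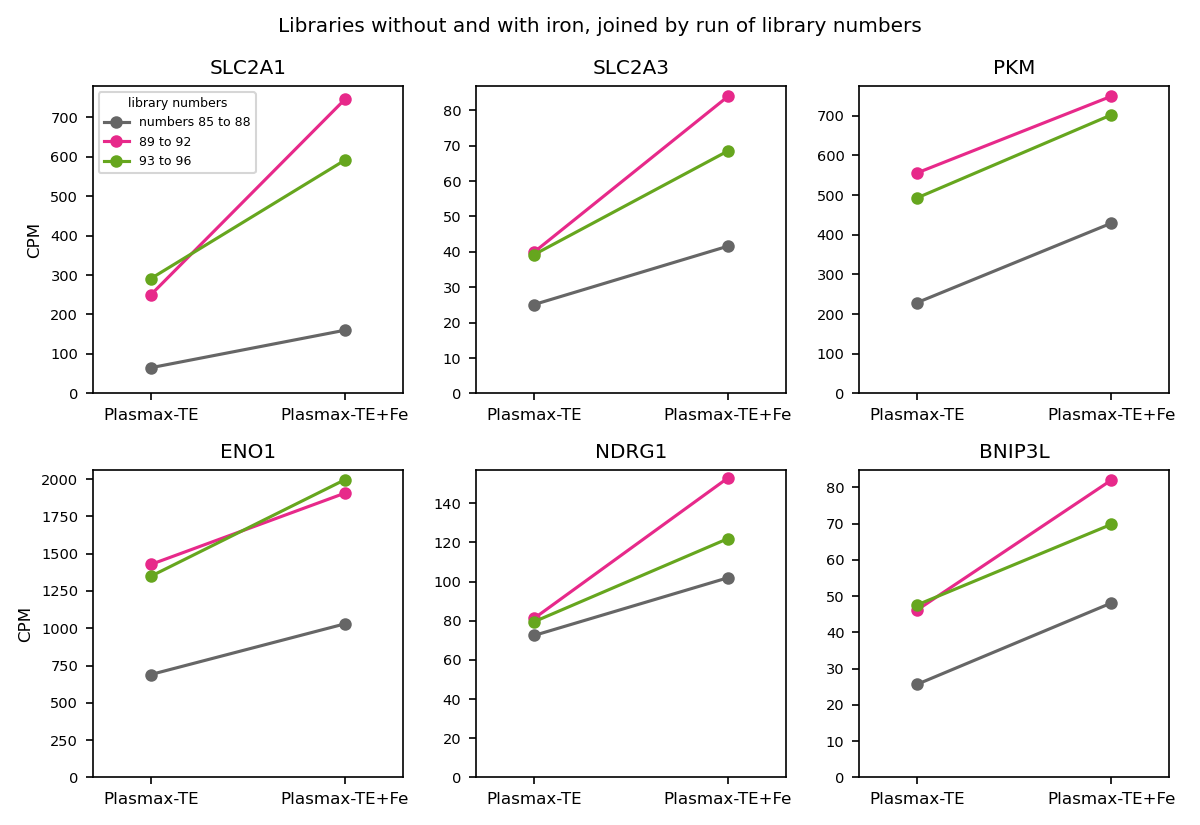
Levels of 6 members in CPM (vertical axis from 0) in Plasmax-TE and Plasmax-TE+Fe, with lines that join the 2 libraries of the same run of library numbers. All 18 lines rise, with SLC2A1 ratios of 2.03 to 2.98, and the run 85 to 88 starts lowest in every panel.

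Against complete Plasmax, the iron-supplemented medium differed in few genes, with 0.507% of all genes called higher and 0.698% lower. LOX rose by 2.52 ± 0.46 (adjusted p = 0.0066), from 1.28, 2.09 and 0.898 CPM to 7.99, 6.49 and 10.4, and was called in every fit with 1 library left out. It was the 1 of 21 other targets that edgeR called, and without the 2 libraries that stood apart BNIP3 was called higher too (log2 0.74, adjusted p = 0.021). No enzyme was called, 0 passed an unadjusted p under 0.05, and DESeq2 and limma-voom called 0. Their median was 0.01, and that of the other targets 0.26, against 0.01 over all genes. SLC2A1 (log2 -0.56 ± 0.42), SLC2A3 (-0.70 ± 0.28) and NDRG1 (-0.57 ± 0.22) had values below 0 without a call, with adjusted p-values of 0.60, 0.27 and 0.25. SLC16A3, with 221, 334 and 265 CPM against 166 to 212, had a log2 fold change of 0.56 ± 0.16 (adjusted p = 0.11).

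In Plasmax-TE against EMEM, of the other HIF targets 16 of 21 fell (median -1.29), and of the enzymes 5 of 13 (median -0.68), while 0 members rose. Over all genes 3.19% were called lower and 1.62% higher, with a median of 0.00. All 34 members had fitted values below 0, and at an unadjusted p under 0.05 0 were higher. DESeq2 and limma-voom called 0 higher, with 15 other targets and 6 enzymes lower in DESeq2 and 12 and 5 in limma-voom. Among the 16 targets that did not depend on EMEM for the filter 11 fell (median -1.10). With the run of library numbers as a block, whose pairs of EMEM and Plasmax-TE libraries deviated together (correlations 0.107 to 0.165), 9 enzymes were lower, with ENO1, ENO2, PKM and LDHA added (adjusted p = 0.0081, 0.031, 0.0023 and 0.0034). This block fit called 525 of 10459 genes lower. In the fit without the 2 libraries that stood apart 15 other targets were lower, as the call of EGLN3 was lost (adjusted p = 0.063), and among the 5 enzymes LDHA (adjusted p = 0.043) took the place of TPI1 (adjusted p = 0.065). There 407 of 10643 genes were lower.

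The lowest adjusted p was that of NDRG1, whose mean went from 369 ± 145 CPM in EMEM to 77.7 ± 4.64 in Plasmax-TE (log2 -2.29 ± 0.23, adjusted p = 4.6e-06). SLC2A3 fell by 2.22 ± 0.30 (adjusted p = 1.2e-04), BNIP3L by 1.48 ± 0.24 (adjusted p = 8.6e-04) and BNIP3 by 1.22 ± 0.21 (adjusted p = 0.0012). SLC2A1 fell by 1.59 ± 0.44 (adjusted p = 0.039), but in DESeq2 its adjusted p was 0.15. The enzymes that fell were HK2 (-0.97 ± 0.19), ALDOA (-1.16 ± 0.18), ALDOC (-1.63 ± 0.31), PGK1 (-1.02 ± 0.22) and TPI1 (-0.60 ± 0.17), with adjusted p-values of 0.0039, 5.3e-04, 0.0031, 0.0081 and 0.0447. CA9 had 2 counts over the Plasmax-TE libraries against 64 in EMEM (ratio 30.5, exact 95% interval 8.10 to 257, counting error only). Here too CA9 passed the filter through EMEM alone, so this ratio had to show a difference. VEGFA, ADM, ANGPTL4, KDM3A and MXI1 were not called, with log2 fold changes of -0.49 to -0.05.

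Without EMEM replicate 2, which had the highest level of many of these genes, 9 other targets and 3 enzymes were called lower in this comparison. Over the 12 fits with 1 library left out, 259 to 678 of all genes were called, fewest without EMEM replicate 3. The number without EMEM replicate 2 is not given here. A general loss of calls in that fit therefore cannot be told from one particular to the members. The calls of TPI1, PGK1, SLC2A1, PFKFB3, PFKFB4, PDK1, EGLN3, INSIG2 and RORA were each lost in at least 1 fit with a library left out, with adjusted p between 0.067 and 0.25 at their highest.

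In Plasmax-TE+Fe against EMEM 12 of 21 other targets (median -1.13) and 3 of 13 enzymes (median -0.35) fell and 0 rose, with 5.98% of all genes called lower and 3.67% higher. At an unadjusted p under 0.05, 0 enzymes and 1 other target were higher. DESeq2 and limma-voom called 0 higher, and each called 13 other targets and 3 enzymes lower. Among the 16 targets that did not depend on EMEM for the filter 9 fell (median -0.78). With the run as a block, whose pairs here had correlations of 0.118 to 0.176, 14 other targets and 6 enzymes were lower, with PFKFB3 and ANGPTL4 (adjusted p = 0.015 and 0.023) and PFKL, TPI1 and LDHA (adjusted p = 0.0074, 0.04 and 0.025) added. This block fit called 904 of 10459 genes lower. When the 2 libraries that stood apart were left out, 13 other targets were lower, with ANGPTL4 added (adjusted p = 0.016), against 830 of 10643 genes. The enzymes were ALDOA (-0.73 ± 0.18, adjusted p = 0.012), ALDOC (-1.78 ± 0.31, adjusted p = 7.9e-04) and PGK1 (-0.72 ± 0.21, adjusted p = 0.038). BNIP3 fell by 1.10 ± 0.20 (adjusted p = 0.0013), P4HA1 by 1.21 ± 0.21 (adjusted p = 6.2e-04), NDRG1 by 1.6 ± 0.22 (adjusted p = 9.4e-05) and LOX by 1.18 ± 0.30 (adjusted p = 0.015). SLC2A1, ENO1 and PKM had values of -0.30 ± 0.42, -0.09 ± 0.25 and -0.14 ± 0.27 and were not called (adjusted p = 0.72, 0.86 and 0.81). Without EMEM replicate 2, 7 other targets and 1 enzyme, ALDOC, were called. The number of all genes in that fit is not given here. Over the 12 fits with 1 library left out it was 606 to 1224, lowest without EMEM replicate 3.

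The members whose difference from EMEM had the widest range over the 3 Plasmax media were the transporter SLC2A1 and LOX. The log2 fold change of SLC2A1 against EMEM was 0.26 in Plasmax, -1.59 in Plasmax-TE and -0.30 in Plasmax-TE+Fe. For LOX it was -3.69, -1.74 and -1.18. BNIP3, with -1.63, -1.22 and -1.10, varied less. With all libraries and no block 9 members were called in none of the 6 pairwise comparisons, namely the enzymes GPI, PFKL, GAPDH, PGAM1 and ENO2 and the targets VEGFA, ADM, KDM3A and MXI1. PGAM1 (at most 9.67 CPM) and ADM (at most 19.8 CPM) were measured with few counts, so smaller changes in them were not detectable at this depth.

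Of 16 named components of the HIF pathway itself 14 were measured, and HIF3A and ARNT2 were not analysed here. From EMEM to Plasmax 1 rose and 1 fell, against 9.9% of all genes called higher and 11.5% lower, and from Plasmax to Plasmax-TE 0 rose and 1 fell, against 5.61% and 5.63%. HIF1A had 84.1, 73.8 and 72.3 CPM in EMEM, 122, 153 and 125 in Plasmax, 42.8, 75.8 and 65.4 in Plasmax-TE and 83.2, 46.5 and 87.9 in Plasmax-TE+Fe. The Plasmax libraries were above the other 9, with a rise over EMEM of 0.74 ± 0.22 (adjusted p = 0.023), a call lost without EMEM replicate 2, EMEM replicate 3 or Plasmax replicate 2 (adjusted p = 0.078 to 0.085). From Plasmax to Plasmax-TE HIF1A fell by 1.09 ± 0.23 (adjusted p = 0.0044), which was called in every fit with 1 library left out. With iron against Plasmax it had a value of -0.86 ± 0.22 (adjusted p = 0.071).

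EGLN2, a HIF prolyl hydroxylase, fell from EMEM to Plasmax by 0.95 ± 0.31 (adjusted p = 0.036), lost without any 1 of 5 libraries (adjusted p up to 0.14). The other 12 components were called in none of the pairwise comparisons with all libraries and no block. They were the alpha subunit EPAS1, ARNT, the hydroxylases EGLN1 and HIF1AN, the degradation factors VHL, ELOB, ELOC, CUL2 and RBX1, the coactivators EP300 and CREBBP, and CITED2, which competes for them. Without the 2 libraries that stood apart 3 components rose and 2 fell from EMEM to Plasmax, against 1446 of 10643 genes higher and 1552 lower. EPAS1 (log2 0.40, adjusted p = 0.036) and ELOB (0.40, adjusted p = 0.020) were called higher there and VHL (-0.49, adjusted p = 0.030) lower. The run as a block called the same numbers of components, against 1388 of 10459 genes higher and 1519 lower. Without the 2 libraries EPAS1 and ELOC were also higher, and EGLN2 lower, in Plasmax-TE+Fe against EMEM (adjusted p = 0.016, 0.043 and 0.041), against 673 of 10643 genes higher and 830 lower. HIF1A was lower there in Plasmax-TE+Fe than in Plasmax (adjusted p = 0.039).

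Of 30 further HIF targets 24 were tested. From EMEM to Plasmax 9 of them fell and 0 rose (11.5% and 9.9% of all genes). Without the 2 libraries that stood apart 13 of 25 fell, against 1552 of 10643 genes. The gene tested only there was EPO, with 6.85, 11.7 and 4.09 CPM in EMEM and at most 3.97 in the other media. EPO thus passed the low-count filter through the medium in which it was high. Among the 9 were IGFBP1, a secreted binding protein of insulin-like growth factors (-1.81 ± 0.25, adjusted p = 3.6e-05), and PLOD2, a collagen lysyl hydroxylase (-1.31 ± 0.23, adjusted p = 4.5e-04). From Plasmax to Plasmax-TE 3 fell and 0 rose (5.63% and 5.61% of all genes), among them the growth inhibitor DDIT4 (-1.38 ± 0.27) and the secreted hormone STC2 (-0.94 ± 0.22), with adjusted p-values of 0.0025 and 0.0085. IGFBP1 was called higher in this comparison without the 2 libraries that stood apart (log2 0.85, adjusted p = 0.033). With iron against Plasmax-TE none was called with all libraries, while with the run as a block 3 were higher, among them DDIT4 and IGFBP1 (adjusted p = 0.017 and 0.0469), and without the 2 libraries that stood apart 2 were, among them DDIT4 (adjusted p = 0.011). Of all genes, 51 of 10459 were higher with the block and 42 of 10643 without the 2 libraries. IGFBP1 had 4938 ± 898 CPM in EMEM, 1467 ± 829 in Plasmax, 2441 ± 184 in Plasmax-TE and 4526 ± 588 in Plasmax-TE+Fe. It rose in Plasmax-TE+Fe against Plasmax by 1.64 ± 0.25 (adjusted p = 0.0015). TFRC, the transferrin receptor, is also controlled by iron through its messenger RNA. It fell by 0.88 ± 0.23 from EMEM to Plasmax (adjusted p = 0.0087). Against EMEM it fell by 1.10 ± 0.23 in Plasmax-TE and by 1.37 ± 0.23 in Plasmax-TE+Fe (adjusted p = 0.0068 and 5.9e-04). Within runs the Plasmax-TE library had 0.751, 0.798 and 0.995 times the TFRC level of its Plasmax partner. The iron library had 0.651, 0.989 and 0.798 times that of its Plasmax-TE partner. With all libraries TFRC was not called higher without trace elements, and was not called when iron was added.

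Beside glycolysis itself, 18 further genes of glucose and pyruvate metabolism were tested, of 28 named. From EMEM to Plasmax 6 fell and 1 rose (11.5% and 9.9% of all genes). From Plasmax to Plasmax-TE 4 rose and 0 fell (5.61% and 5.63%), and with iron 1 fell and 0 rose (0.172% and 0.0861%). MPC1, a subunit of the mitochondrial pyruvate carrier, had 151 ± 8.68 CPM in EMEM, 57.3 ± 8.08 in Plasmax, 152 ± 6.23 in Plasmax-TE and 85.2 ± 8.16 in Plasmax-TE+Fe. It fell by 1.46 ± 0.15 from EMEM to Plasmax (adjusted p = 1.8e-06), rose by 1.42 ± 0.16 without trace elements (adjusted p = 1.2e-05) and fell by 0.84 ± 0.15 when iron was added (adjusted p = 0.024). Its partner MPC2 fell by 1.01 ± 0.17 in Plasmax (adjusted p = 3.1e-04) and rose by 0.61 ± 0.18 in Plasmax-TE (adjusted p = 0.031). PDHB, a subunit of pyruvate dehydrogenase, fell by 0.73 ± 0.17 and rose by 0.59 ± 0.17 in the same comparisons (adjusted p = 0.0036 and 0.027). SLC2A2, the glucose transporter typical of hepatocytes, rose from Plasmax to Plasmax-TE by 0.97 ± 0.27 (adjusted p = 0.028), where SLC2A1 and SLC2A3 fell. PGM1, which links glycogen to glycolysis, fell from EMEM to Plasmax by 1.64 ± 0.18 (adjusted p = 3.0e-06). With 1 library left out, the MPC1 call with iron was lost without Plasmax-TE replicate 2 or 3 or Plasmax-TE+Fe replicate 1 or 3 (adjusted p = 0.073 to 0.23). The rises of MPC2, PDHB and SLC2A2 in Plasmax-TE were each lost in 3 to 5 such fits (adjusted p up to 0.17, 0.12 and 0.17), and those of PDHB and SLC2A2 also without the 2 libraries that stood apart (adjusted p = 0.074 and 0.12), where PGM1 gained a call (adjusted p = 0.0492) and 3 genes of this list rose, against 586 of all 10643 genes.

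Reads at the 3′ end may be shared with neighbouring or related genes. In the GENCODE 29 annotation 9 of the 34 members (ALDOC, TPI1, GAPDH, SLC16A3, BNIP3L, LOX, ANGPTL4, ANKRD37 and RORA) have a gene on the other strand over their last kilobase. A gene on the same strand lies there for GPI, ALDOA and ALDOC. The sources used here do not give the strand setting of the counting, so reads of such pairs cannot be told apart. Annotated pseudogenes of the same name exist for 12 members, among them GAPDH (62), BNIP3 (39) and PGAM1 (13). Reads common to copies make the levels of these members less certain, including the low level of PGAM1.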

How the data were processed

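Messenger RNA 3′ ends of HepG2 cells were sequenced with a QuantSeq kit, per the labels' protocols. The authors deposited raw counts per gene, without normalization. Per the submitters' processing notes the tools included STAR 2.7.5b and featureCounts 1.6.3, beside cutadapt 1.16, FastQC 0.72 and limma 3.40.6, with build hg19 (GRCh37). The annotation and strand setting are not given in the sources used here. Of 10994 entries 54 repeated a gene with identical counts and were dropped. The third-highest CPM of every gene was at least 4.04, so low genes are missing from the table.

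All 12 libraries were fitted in R 4.3.3 with edgeR 4.0.16 (quasi-likelihood test, TMM factors, 1 term per medium, 8 residual degrees of freedom). filterByExpr (minimum count 10, minimum total 15) removed 481 genes and left 10459. All 34 measured members passed. Tests were two-sided with Benjamini-Hochberg adjustment over all genes tested, and an exact permutation test of 3 against 3 cannot go below p = 0.1. Fits were tested on simulated data. Alternatives were DESeq2 1.42.0, limma-voom (limma 3.58.1), RLE factors, scaling by library size alone, no filter, 2 blocks, each library left out and 2 libraries left out together. Replicates of a medium differed by more than sampling noise, so none was merged. Members, lists and tests were chosen with earlier results of these data known, and the counts that set aside 5 members below the filter level outside EMEM were added after values were seen. The rule for named genes takes every member and HIF component, TFRC, and up to 4 called genes of the other lists with the lowest p in a comparison, of which not all are described. Library totals set the precision of each level.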

Additional observations from a re-analysis of the deposited data

How the results depend on the processing

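No called value of a member or pathway gene changed sign in the alternatives run, and 53 of 4309 values under other settings, with leave-one-out fits apart, had another sign, all of them short of the threshold in both fits. Of the same values, 35 lost and 79 gained a call. With the replicate block (replicate number) counts stayed within 1.5 times, for example 14 other targets and 5 enzymes lower from EMEM to Plasmax. Replicate number and run group the EMEM, Plasmax and Plasmax-TE libraries alike, and differ only in where the Plasmax-TE+Fe libraries are placed. Few pairs with the same replicate number deviated together (correlations -0.433 to 0.165, 5 of 18 over 0.1). More pairs of a run of library numbers did so (0.022 to 0.538, 10 of 18). With the library-number block 2835 genes and 9 enzymes differed among the 4 media. In the pairwise comparisons it called 1859 genes for Plasmax-TE against Plasmax, 152 genes, 1 enzyme and 2 other targets for Plasmax-TE+Fe against Plasmax-TE, and 372 genes and 3 other targets for Plasmax-TE+Fe against Plasmax. Against EMEM it called 829 genes and 9 enzymes for Plasmax-TE and 1569 genes and 6 enzymes for Plasmax-TE+Fe. Without the 2 libraries that stood apart 8 enzymes differed among the media, with no number of all genes given beside them. In that fit Plasmax-TE+Fe against Plasmax-TE had 99 genes and 1 other target, and Plasmax-TE+Fe against Plasmax 2 other targets. DESeq2 called 71 genes for Plasmax-TE+Fe against Plasmax-TE and 1 enzyme for Plasmax-TE against Plasmax. With 1 library left out, ranges over the 12 fits were 1275 to 2465 genes, 3 to 8 enzymes and 13 to 17 other targets for the 4 media. They were 1489 to 2642 genes, 2 to 6 enzymes and 10 to 16 other targets for Plasmax against EMEM, and 477 to 1577, 0 to 2 and 3 to 8 for Plasmax-TE against Plasmax. They were 0 to 229, 0 to 1 and 0 to 3 for Plasmax-TE+Fe against Plasmax-TE, and 31 to 170 genes for Plasmax-TE+Fe against Plasmax. Against EMEM they were 259 to 678, 3 to 7 and 9 to 16 for Plasmax-TE and 606 to 1224, 1 to 3 and 7 to 14 for Plasmax-TE+Fe. The cause of these moves was not tested. At totals of 1562125 to 2384090 counts, changes of genes of a few CPM, such as CA9, PFKFB4 and EGLN3, rest on few counts.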
